A study of Mus musculus with 8 samples.

Results

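Homologous recombination and end joining genes were examined in leukaemic granulocyte-macrophage progenitors (L-GMP) with and without Dek. The members were 32 genes chosen by symbol for their part in recombination, the Fanconi anaemia pathway and end joining. All 32 were found among the 55291 genes of the deposited count table, and all 32 passed the filter on low counts that kept 17418 genes. They fell into 4 genes for break ends and resection, 4 of the BRCA complexes, 5 recombination mediators, 4 for strand exchange and dissolution, 7 Fanconi anaemia genes, 6 end joining genes and 2 signalling kinases.

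The study sequenced bulk RNA of bone marrow L-GMP from mice with acute myeloid leukaemia, and the labels call the sorted cells leukaemia stem cells. KO libraries (4) came from Dekfl/fl,MX1-Cre mice and FL libraries (4) from Dekfl/fl mice. Both groups carried the MLL-AF9 leukaemia and the floxed Dek alleles. MX1-Cre is a transgene whose promoter answers to interferon and which acts in blood and other cells; FL mice lacked it, so its effect and that of Dek loss cannot be told apart. Cells were sorted by surface markers, with c-Kit, CD16/32 and CD34 present and Sca-1 and lineage markers absent. Ages, batches and the scheme of Cre induction are not in the labels. Nor do the labels tie each library to its own mouse, so the p-values cover library-to-library spread, which may be technical.

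A DNA double-strand break can be repaired from the sister chromatid by homologous recombination, which needs resected ends and a search for the matching strand and works mainly in S and G2 phase. It can also be closed directly by end joining, in which the Ku heterodimer holds the ends, DNA-PKcs is recruited and ligase IV seals them. Fanconi anaemia proteins unhook crosslinks between strands and hand the break to recombination, and their loss is known for bone marrow failure and leukaemia. DEK, a chromatin-bound protein, has known roles in both repair routes.

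Library totals were 33941940 to 49736592 counts in KO and 44086524 to 58660705 counts in FL. The number of genes detected was 30606 to 37801 in KO and 24125 to 26053 in FL. Levels are given as CPM, counts per 1e6 library counts scaled by TMM, a method that sets the bulk of genes equal between libraries. Its factors were 1.204 to 1.255 in KO and 0.682 to 0.912 in FL, so scaling by library totals alone shifts the fold change of every gene upwards: the median log2 fold change of all genes was 0.05 with TMM and 0.64 with total-count scaling. Dek was at 21.2, 21.4, 31 and 16.7 CPM in KO replicates 1 to 4 and at 129, 137, 163 and 178 CPM in FL replicates 1 to 4 (edgeR log2 fold change -2.75, SE 0.19, adjusted p = 1.7e-05), in the direction of the labels, although the deleted exons are not named. Transcripts of the gate were present in all libraries: Kit averaged 153.6 ± 31.5 CPM in KO and 91.1 ± 11.4 CPM in FL, and Cd34 460.8 ± 58.8 CPM in KO and 709.9 ± 77.0 CPM in FL (SD, n = 4 each). Their levels differed between the groups in opposite directions. By edgeR, Kit was higher in KO (log2 fold change 0.75, adjusted p = 0.0061) and Cd34 lower (-0.62, adjusted p = 0.0056). Mpo, a progenitor granule gene, lay at 10400 to 13700 CPM in KO and 5480 to 15500 CPM in FL. Ctsg, another progenitor gene, was lower, at 4630 to 4930 CPM in KO and 6280 to 9940 CPM in FL (edgeR, -0.83, adjusted p = 0.0033). Of the 8 listed L-GMP markers, 1 was called higher and 3 lower in KO, beside 13.0% and 14.9% of all genes.

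Most break repair genes had like levels in KO and FL L-GMP, and 3 of the 5 genes that passed belonged to end joining. In edgeR's quasi-likelihood test, adjusted over all genes by the Benjamini-Hochberg method, 5 of the 32 members were higher in KO at an adjusted p of 0.05: Xrcc5, Xrcc4 and Prkdc of end joining, Nbn of the break-end complex and Fancc of the Fanconi anaemia core complex. None of the 32 was lower by edgeR or by DESeq2, with 1 member, Blm, lower at an unadjusted p under 0.05 in each. The share of all tested genes called was 27.9%, with 13.0% higher and 14.9% lower, so the 5 higher of 32 lay near the background and the 0 lower of 32 under it. The median log2 fold change of the members was 0.03 beside 0.05 for all genes. In 5 members every KO library lay above every FL library, against 15.1% of all genes, and in 1 member all KO libraries were below all FL libraries, against 15.8% of all genes. Under total-count scaling 24 members were higher and 0 lower, by edgeR, with 27 higher and 0 lower at an unadjusted p under 0.05; 51.7% of all genes were then higher and 5.09% lower, and the members' median of 0.62 was beside the all-gene median of 0.64. In the bulk libraries a change in the share of cells that express a gene and a change in RNA per cell cannot be told apart.

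**Figure D1:**
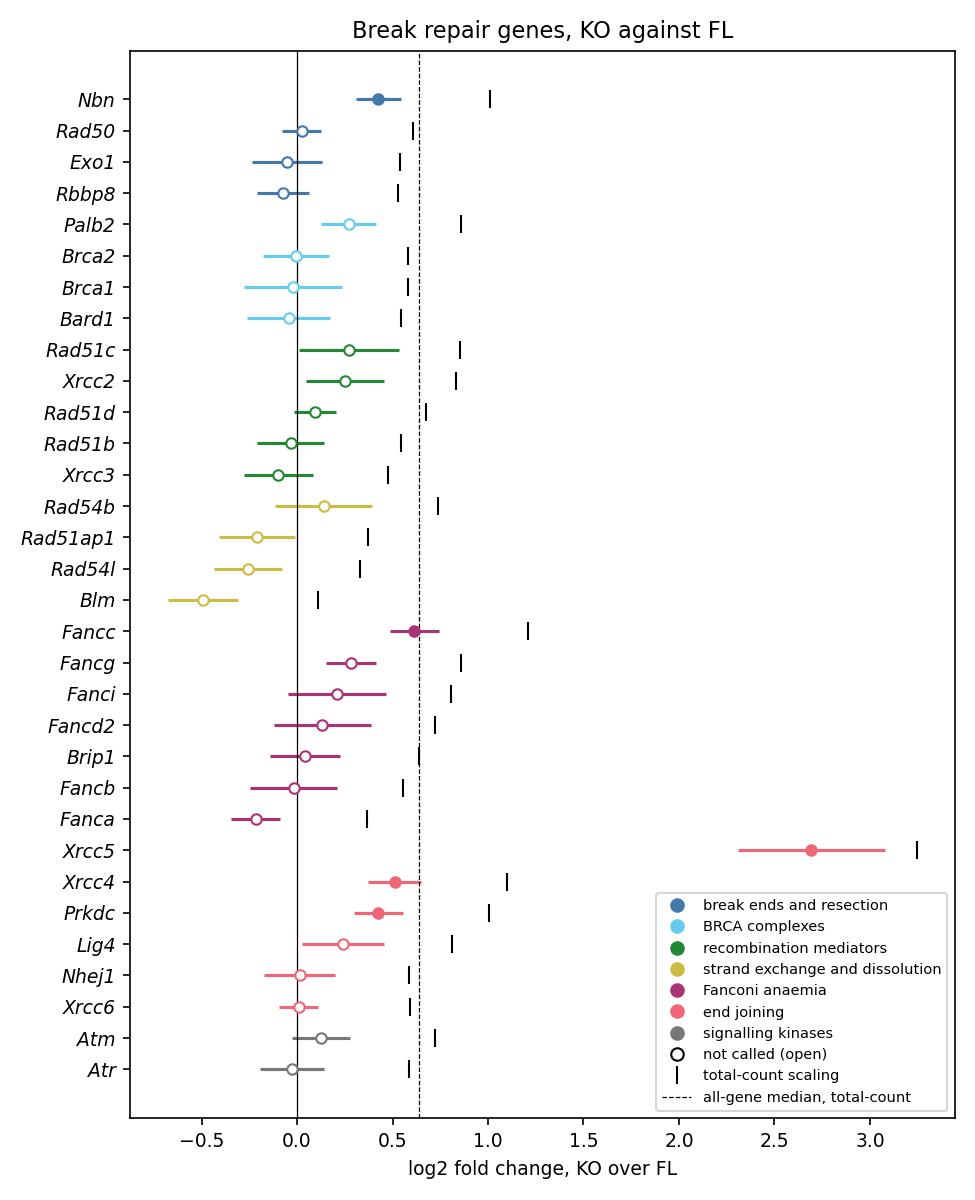
Log2 fold change of each of the 32 break repair genes, KO over FL, grouped by role and coloured by it; circles with bars are the TMM-scaled fit with 1 SE, filled where the adjusted p was under 0.05, and vertical ticks give the value under total-count scaling. The dashed line marks the all-gene median of 0.64 under total-count scaling; Xrcc5 stands at 2.69, and the other 31 circles lie between -0.49 and 0.61.

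Levels differed far more between members than between groups. Per length, as CPM per kb of exon, Xrcc6, which encodes a subunit of the Ku heterodimer that binds broken ends, was the most abundant member, at 17.7 ± 1.3 in KO and 17.6 ± 1.3 in FL (SD, n = 4 each). Nbn and Fancg followed in KO, at 12.5 ± 1.5 and 12 ± 1, overlapping Rad50 at 11.5 ± 1.1. In FL Rad50, the ATPase of the complex that tethers ends, came second at 11.3 ± 0.58, overlapping Xrcc3 (10.1 ± 2.3) and Fancg (9.85 ± 1.5) but not Nbn (9.28 ± 0.36). The lowest members in KO were Lig4 (0.608 ± 0.098 CPM per kb), Atr (0.958 ± 0.014) and Bard1 (1.08 ± 0.28), and the range of Bard1 overlapped those of both others. In FL the lowest was Xrcc5, at 0.207 ± 0.091 CPM per kb against 1.35 ± 0.52 in KO, under Lig4 at 0.514 ± 0.068 in FL with no overlap. Exon lengths are unions over all annotated transcripts of a gene, so a gene with a long rare transcript, such as Atr with 23.63 kb, reads lower than its main transcript would.

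**Figure D2:**
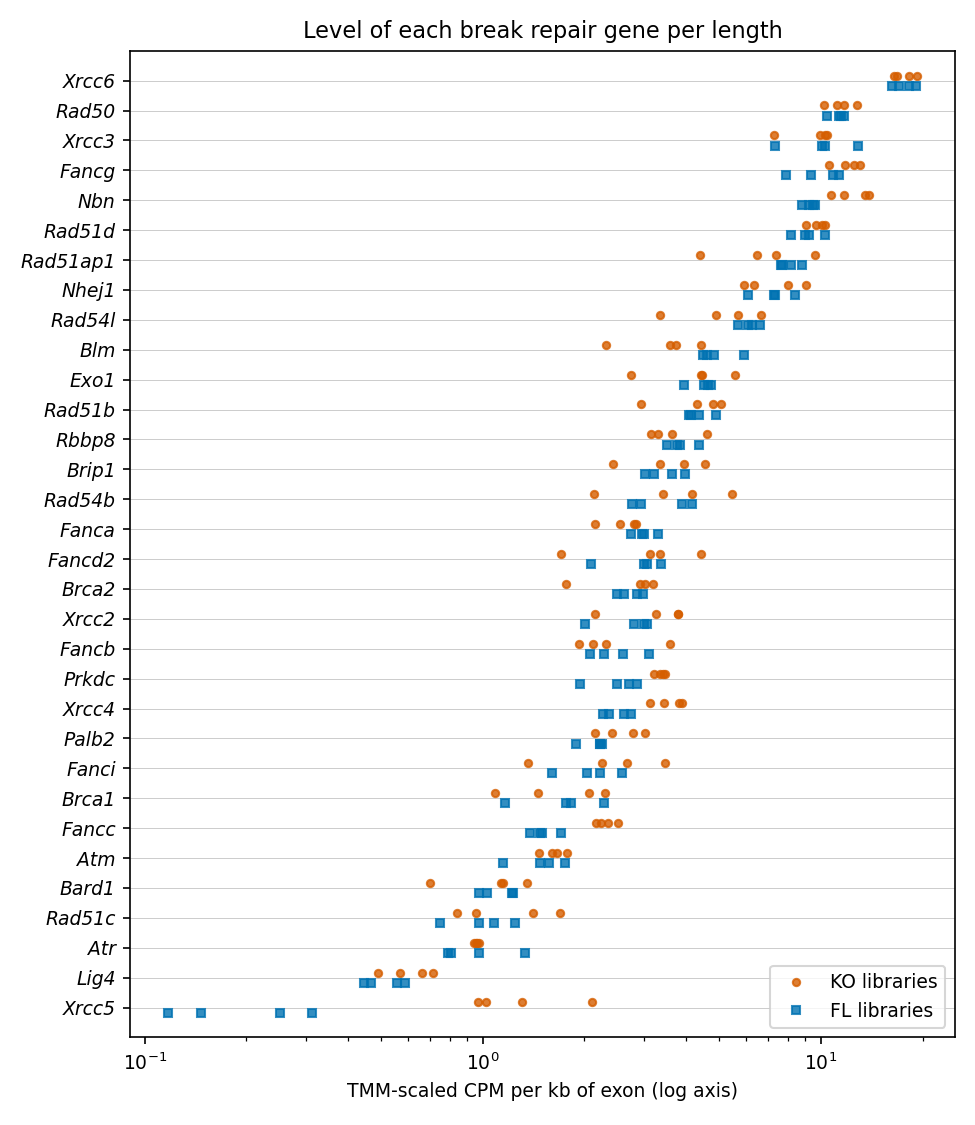
Level of each break repair gene in TMM-scaled CPM per kb of exon on a log axis, 1 point per library, with KO circles above FL squares in each gene's band and genes ordered by the FL mean. Xrcc6 is at the top at 17.7 in KO and 17.6 in FL, and Xrcc5 at the bottom, where the KO circles stand apart to the right of the FL squares.

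The end joining genes held the largest change. Xrcc5, which encodes the other Ku subunit, was at 2.60, 3.34, 5.36 and 2.48 CPM in KO replicates 1 to 4, against 0.644, 0.796, 0.298 and 0.375 CPM in FL replicates 1 to 4. Every KO library was above every FL library, and KO replicate 3 was the highest. These values rest on 140, 153, 221 and 153 counts in KO and 29, 32, 12 and 15 counts in FL. Xrcc5 was thus 6.47-fold higher in KO, a log2 fold change of 2.69 with an SE of 0.39 (adjusted p = 6.4e-04), and the gene was called higher in each of the 8 fits that left out 1 library. Among all tested genes averaging 1 to 4 CPM, 18.5% were called higher. When the count of detected genes, which differs between the groups without overlap, entered the fit as a covariate, the value was 1.38 and did not pass (adjusted p = 0.35). In that fit 0.614% of all genes were called higher. The annotation places Xrcc5 on chromosome 1 from 72307421 to 72394952 (mm10, plus strand, protein coding), with no exon bases shared with another gene.

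Its partner Xrcc6, on chromosome 15 from 81987835 to 82040085, was at 86.4, 81.8, 74.0 and 75.3 CPM in KO and at 85.3, 81.9, 72.6 and 76.0 CPM in FL. The groups covered the same range, and the log2 fold change came to 0.01 (SE 0.10, adjusted p = 0.96). A ratio of both genes within a library needs no scaling between libraries. Per length, Xrcc5 stood at 0.0527, 0.0715, 0.127 and 0.0577 of Xrcc6 in KO and at 0.0132, 0.0170, 0.00718 and 0.00864 of Xrcc6 in FL. The proteins work as a heterodimer, yet in each library the Xrcc5 transcript count per length was well under that of Xrcc6, and the groups did not overlap. Xrcc6 shares 7.7% of its exon bases with Desi1 on the opposite strand, a gene at 26.5 to 36.0 CPM in KO and 28.6 to 39.5 CPM in FL, and the strand setting of the counting is not given in the sources used here.

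The promoter windows of these partners are shown because their transcripts, unequal in level and in change, encode the subunits of a single heterodimer; that of Brca2 is given as a recombination gene that did not pass. Each runs from 250 bases before to 50 after the RefSeq gene start (GRCm38.p6, the mm10 assembly), 5′ to 3′ on the gene's strand, with capitals at the E2F-type motif TTTCCCGC or GCGGGAAA and at the CCAAT box, CCAAT or ATTGG.
Xrcc5 (chr1:72307171-72307470, plus strand): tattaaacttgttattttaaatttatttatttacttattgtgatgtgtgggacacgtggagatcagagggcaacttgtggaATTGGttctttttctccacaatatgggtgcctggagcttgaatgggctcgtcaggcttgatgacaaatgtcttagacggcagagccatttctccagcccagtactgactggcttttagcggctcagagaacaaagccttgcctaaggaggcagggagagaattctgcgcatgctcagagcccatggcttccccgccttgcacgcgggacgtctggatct
Xrcc6 (chr15:82016119-82016418, plus strand): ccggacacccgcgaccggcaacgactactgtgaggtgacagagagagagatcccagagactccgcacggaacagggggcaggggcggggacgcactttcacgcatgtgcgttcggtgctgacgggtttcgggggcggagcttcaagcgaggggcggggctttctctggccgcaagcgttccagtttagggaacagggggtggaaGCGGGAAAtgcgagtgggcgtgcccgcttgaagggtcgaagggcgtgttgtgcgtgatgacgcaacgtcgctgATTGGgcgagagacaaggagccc
Brca2 (chr5:150522371-150522670, plus strand): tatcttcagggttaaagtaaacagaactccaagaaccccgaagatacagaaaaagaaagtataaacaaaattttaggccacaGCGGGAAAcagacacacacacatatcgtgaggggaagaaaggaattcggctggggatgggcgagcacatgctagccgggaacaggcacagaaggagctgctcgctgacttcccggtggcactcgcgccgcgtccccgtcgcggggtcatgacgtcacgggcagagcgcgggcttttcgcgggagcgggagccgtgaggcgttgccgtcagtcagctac
The RefSeq start of Xrcc6 lies inside the annotated span of the gene given above. The Xrcc5 window had 48% G and C and 9 CpG, against 64.3% and 30 CpG for Xrcc6 and 56.7% and 25 CpG for Brca2; the median over all 32851 promoter windows was 52.7% and 7 CpG. RefSeq windows were matched for 23 of the 32 members, 27 windows in all, with a median of 60% G and C and 23 CpG. On both strands, TTTCCCGC was found in 5 of the 27 member windows, those of Bard1, Brca2, Fancg, Rad51c and Xrcc6, and in 1.07% of all windows. A second E2F form, TTTGGCGC, was in 0 of the 27 and in 0.514% of all. CCAAT was found in 16 of the 27 and in 37.4% of all, and the CHR element TTTGAA in 2 of the 27 and in 17.9% of all. The windows of Rad54l overlap each other, as do those of Rad51b, and both pairs repeat a CCAAT match. By gene, CCAAT was found for 14 of 23. The marked motifs did not overlap in the printed windows. These matches describe letters and are not sites.

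Prkdc, which encodes the DNA-PK catalytic subunit that Ku recruits, was at 42.4, 45.0, 44.1 and 45.8 CPM in KO and at 37.8, 35.7, 25.6 and 32.8 CPM in FL. KO libraries lay close together and all above the FL libraries, which spread more widely. The log2 fold change came to 0.43 (SE 0.13, adjusted p = 0.030). It did not pass in fits lacking KO replicate 1, 2, 3 or 4 (adjusted p of 0.057, 0.080, 0.059 and 0.067) or FL replicate 3, the lowest FL library (0.31, adjusted p = 0.057). Relative to Xrcc6 within a library, Prkdc stood at 0.167 to 0.207 per length in KO and at 0.12 to 0.15 in FL, with no overlap.

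Xrcc4, the scaffold that stabilises ligase IV, was at 16.4, 14.5, 13.2 and 16 CPM in KO and at 10, 11.6, 9.55 and 11 CPM in FL. All KO libraries lay above all FL libraries, with a log2 fold change of 0.51 (SE 0.14, adjusted p = 0.019). In fits lacking KO replicate 1, FL replicate 1 or FL replicate 3 it did not pass (adjusted p of 0.062, 0.054 and 0.051). Lig4, the ligase itself, was at 3.44, 2.55, 2.96 and 3.70 CPM in KO and at 2.89, 3.06, 2.43 and 2.32 CPM in FL. Its groups overlapped, with a log2 fold change of 0.24 (SE 0.21, adjusted p = 0.43). The ratio of Xrcc4 to Lig4 per length was 5.36 to 7.03 in KO and 4.29 to 5.84 in FL, which overlapped. Nhej1, which encodes the XLF filament protein, averaged 8.21 ± 1.64 CPM in KO and 8.13 ± 1.06 CPM in FL (SD, n = 4 each) and had a log2 fold change of 0.01. Over the 6 end joining genes the median log2 fold change was 0.33, 3 were higher, 0 were lower and 3 did not pass. Over all genes 13.0% were higher and 14.9% lower. Of 6 further tested end joining genes outside the members, 1 was higher and 1 lower, with a median of -0.08. The 6 members are too few to read as a result about end joining as a whole.

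**Figure D3:**
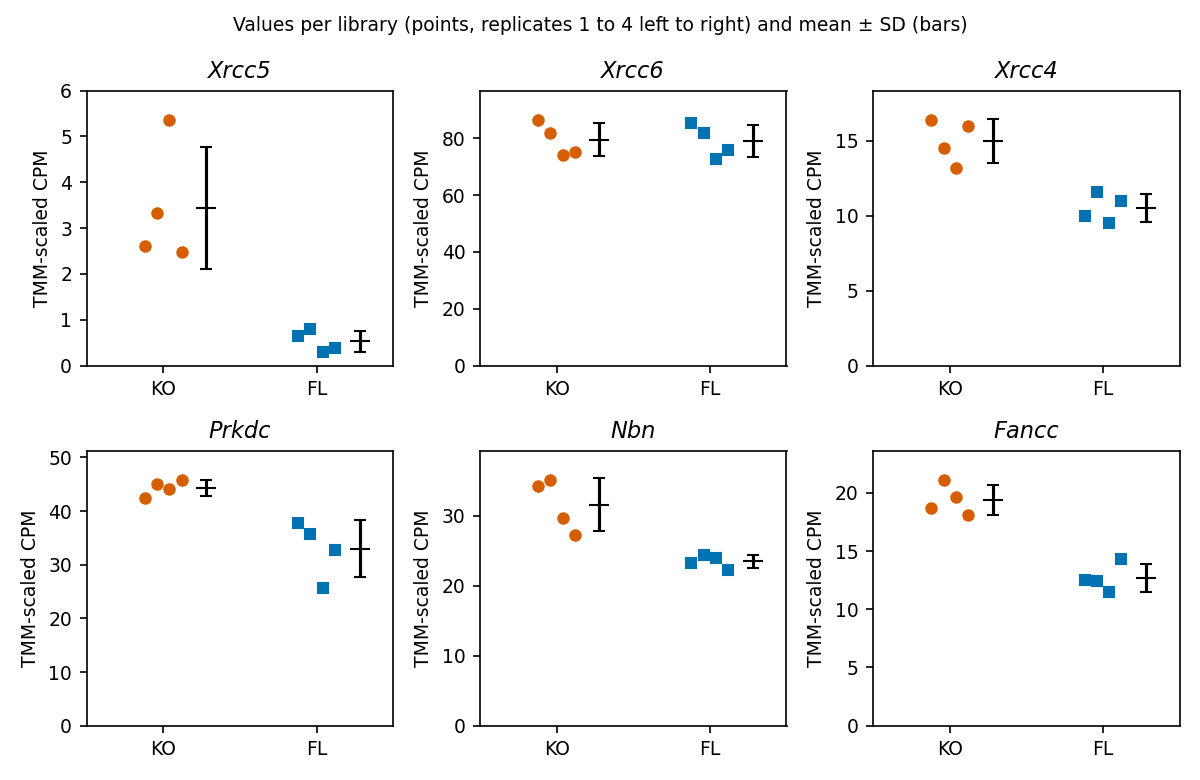
TMM-scaled CPM per library for the 5 break repair genes called higher in KO and for Xrcc6, with KO circles left of FL squares, replicates 1 to 4 from left to right in each group, and black marks for the mean and SD (n = 4 each). In Xrcc5, Xrcc4, Prkdc, Nbn and Fancc every KO point lies above every FL point, whereas the Xrcc6 points of both groups lie between 72.6 and 86.4.

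At break ends, Nbn was the member that rose. Nbn encodes nibrin, which brings the ATM kinase to the complex formed with RAD50 and MRE11. It was at 34.3, 35.1, 29.7 and 27.2 CPM in KO and at 23.3, 24.4, 24.0 and 22.3 CPM in FL, without overlap, a log2 fold change of 0.42 (SE 0.12, adjusted p = 0.021). Without KO replicate 1, KO replicate 2 or FL replicate 1 the adjusted p was 0.071, 0.083 and 0.054. Rad50 averaged 61.6 ± 5.92 CPM in KO and 60.5 ± 3.16 CPM in FL (log2 fold change 0.02), and Mre11a, not among the 32 but the nuclease of the same complex, averaged 43.4 ± 2.84 and 42.7 ± 3.03 CPM in KO and FL (0.02; SD, n = 4 each). Per length the ratio of Nbn to Rad50 was 0.916 to 1.24 in KO and 0.777 to 0.911 in FL, just short of overlapping. Rbbp8, which encodes CtIP and starts resection, and Exo1, which extends it, had log2 fold changes of -0.07 and -0.05 and groups that overlapped.

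The BRCA genes did not pass in either direction. Brca1, a ubiquitin ligase subunit that promotes resection, was at 12.5, 17.6, 19.6 and 9.33 CPM in KO and at 15.0, 15.5, 9.94 and 19.5 CPM in FL. Both groups spanned about the same range, and the log2 fold change came to -0.02 (SE 0.26, adjusted p = 0.96). Brca2, which prepares resected DNA for strand exchange, was at 41.3, 39.8, 43.6 and 24.0 CPM in KO and at 35.6, 40.6, 34 and 39.2 CPM in FL. KO replicate 4 was below the other 7 libraries, and the log2 fold change came to -0.01 (SE 0.17, adjusted p = 0.98). Bard1, the partner of BRCA1, and Palb2, which links BRCA1 to BRCA2, had log2 fold changes of -0.04 (SE 0.22) and 0.27 (SE 0.14, adjusted p = 0.18). Per length Brca1 stood at 1.30 to 1.80 of Bard1 in KO and 1.20 to 1.85 in FL, and Brca2 at 0.817 to 1.25 of Palb2 in KO and 1.15 to 1.34 in FL.

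Among the mediators Rad51b, Rad51c, Rad51d, Xrcc2 and Xrcc3, which form complexes that assist recombination, 0 of 5 were called by edgeR, and none had an unadjusted p under 0.05. Rad51d was at 33.6 to 38.1 CPM in KO and 30.3 to 38.2 CPM in FL. Rad51c, at 3.68 to 7.43 CPM in KO and 3.27 to 5.50 CPM in FL, and Xrcc2, at 11.2 to 19.7 CPM in KO and 10.5 to 16 CPM in FL, had log2 fold changes of 0.27 (SE 0.26) and 0.25 (SE 0.20). Rad51b and Xrcc3 had -0.03 (SE 0.17) and -0.10 (SE 0.18). The 4 genes of strand exchange and dissolution had the lowest median of the roles, a log2 fold change of -0.23. Blm, the helicase that dissolves joined molecules, was at 31.4, 32.7, 38.9 and 20.4 CPM in KO and at 39.2, 42.3, 40.4 and 51.9 CPM in FL. Every KO library was below every FL library, by as little as 38.9 against 39.2 CPM, and the log2 fold change came to -0.49 (SE 0.18, adjusted p = 0.066). It passed as lower without KO replicate 3 (-0.63, adjusted p = 0.032) and without a count filter (-0.55, adjusted p = 0.012), and under total-count scaling it was 0.11. Rad54l, a motor protein that moves along DNA, and Rad51ap1, which aids strand pairing, had -0.26 (SE 0.18) and -0.21 (SE 0.20). Rad54b had 0.14 (SE 0.25); it shares 35.8% of its exon bases with Fsbp on the same strand, a gene at 0.568 to 1.24 CPM in KO and 0.488 to 1.44 CPM in FL, and reads in the shared bases could come from either gene.

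Of the 7 Fanconi anaemia genes, Fancc rose and 6 did not pass, beside 13.0% of all genes called higher. The median log2 fold change of the 7 was 0.13. Fancc, a core complex gene, was at 18.7, 21.1, 19.6 and 18.1 CPM in KO and at 12.5, 12.4, 11.5 and 14.3 CPM in FL. All KO libraries lay above all FL libraries by more than the spread in either group, with a log2 fold change of 0.61 (SE 0.13, adjusted p = 0.0051), and the call held in each fit that left out 1 library. Fancc shares 16.4% of its exon bases with the antisense gene Gm16133, which was at 0.340 to 0.761 CPM in KO and 0.222 to 0.498 CPM in FL. Other core complex genes had log2 fold changes of 0.28 (Fancg, SE 0.13, adjusted p = 0.14), -0.22 (Fanca, SE 0.13, adjusted p = 0.23) and -0.02 (Fancb, SE 0.23). Fancd2 and Fanci, the pair that the core complex tags with ubiquitin, had 0.13 (SE 0.25) and 0.21 (SE 0.26), and their ratio per length, Fanci over Fancd2, was 0.720 to 0.805 in KO and 0.666 to 0.768 in FL. Fanci shares 16% of its exon bases with Polg on the opposite strand. Brip1, a helicase that binds BRCA1, had 0.04 (SE 0.18).

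The kinases at the top of break signalling did not differ beyond the spread between libraries. Atm, activated by double-strand breaks, was at 18.3, 15.2, 17.2 and 16.5 CPM in KO and at 15.3, 16.2, 11.9 and 18.1 CPM in FL (log2 fold change 0.13, SE 0.15, adjusted p = 0.56). Atr, activated by single-stranded DNA, was at 23, 22.2, 22.7 and 22.6 CPM in KO and at 19.0, 23.1, 18.7 and 31.4 CPM in FL (-0.03, SE 0.17, adjusted p = 0.92). The KO libraries lay inside the FL range for Atr and nearly so for Atm. FL replicate 4 was the highest FL library for both.

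Within the KO group, recombination and Fanconi anaemia genes followed the library, whereas most end joining and kinase genes did not. KO replicate 4 was the lowest KO library for 22 of the 24 members outside end joining and the kinases, and KO replicate 3 the highest for 18 of them; over all genes these shares were 30.7% and 26.7%. The ratio of KO replicate 3 to KO replicate 4 had a median of 1.79 over these 24 genes, 0.972 over the 6 end joining genes and 0.999 over all genes. Fancd2 was at 35.2 CPM in KO replicate 3 and 13.6 CPM in KO replicate 4, a ratio of 2.6, and Rad54b and Fanci had ratios of 2.57 and 2.55. Rad51d, with a ratio of 0.9, was the exception among the 24. Of the end joining genes Xrcc5 and Nhej1 were higher in KO replicate 3, by 2.16 and 1.53, and Xrcc6, Prkdc, Xrcc4 and Lig4 had ratios of 0.982, 0.961, 0.821 and 0.801.

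Mitosis genes ordered the KO libraries in the same way: all 20 were highest in KO replicate 3 and lowest in KO replicate 4, with a median ratio of 2.82. Their summed level was 2222, 2622, 3845 and 1354 CPM in KO replicates 1 to 4 and 2254, 3092, 2493 and 2813 CPM in FL replicates 1 to 4. Of 38 DNA replication and G1/S genes, 32 were highest in KO replicate 3 and 37 lowest in KO replicate 4, with a median ratio of 1.73. KO replicate 3 also held the most late neutrophil transcripts: 10 markers summed to 2530 CPM there and to 202 to 413 CPM in the other KO libraries, and to 170 to 797 CPM in FL. The part of cell cycle and of other cells in the spread of the members was not tested. The highest over the lowest library had a median of 1.84 in KO and 1.27 in FL over the 24 genes, beside 1.49 in KO and 1.62 in FL over all genes. FL replicate 3 was the lowest FL library for 22 of the 32 members (68.8%), against 29.5% of all genes. That spread enters the SE, which was 0.25 to 0.26 for Brca1, Rad54b, Fanci and Fancd2 and 0.10 to 0.14 for Xrcc6, Rad50, Nbn, Prkdc and Xrcc4.

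**Figure D4:**
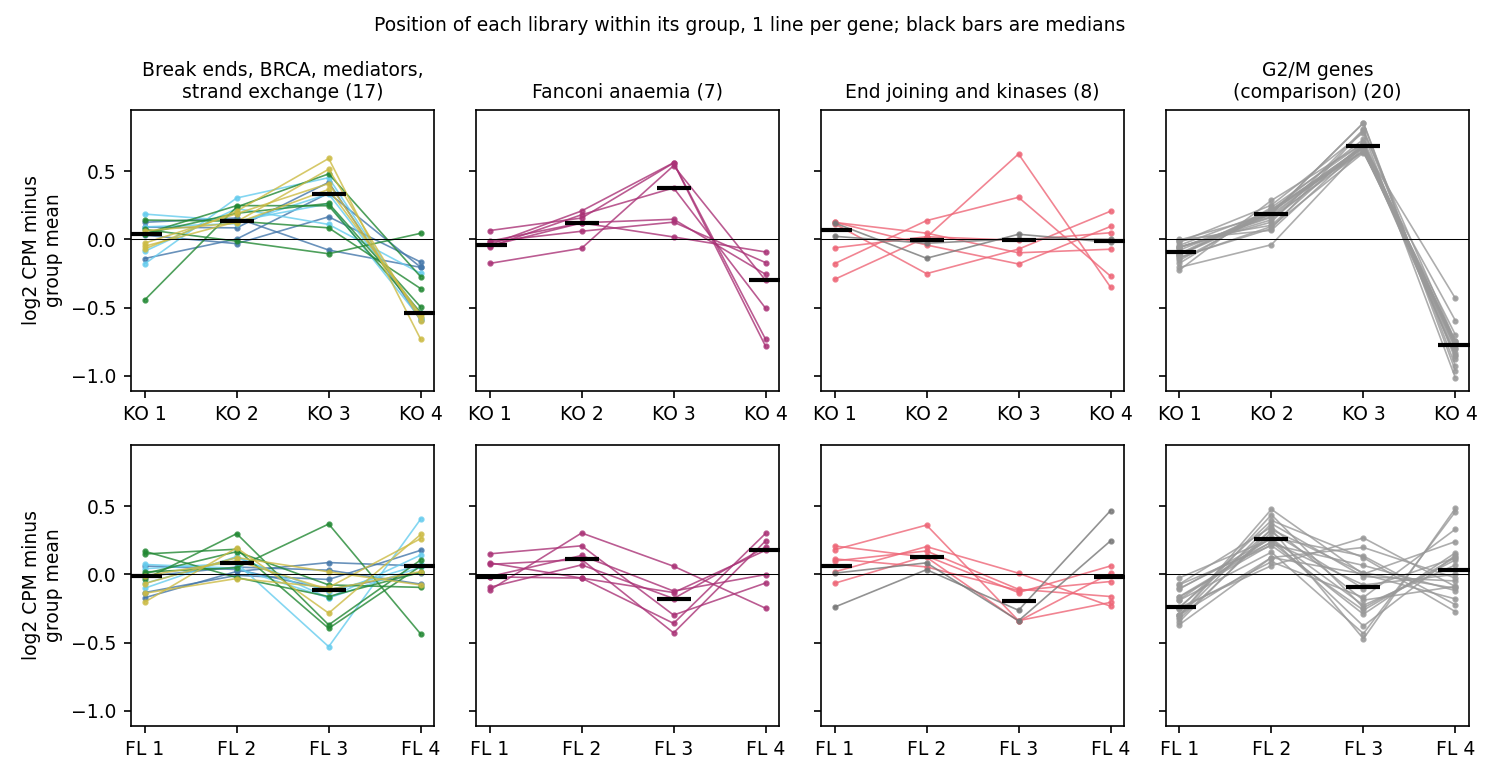
Log2 CPM (plus 0.5) of each gene minus its mean over the 4 libraries of its group, KO libraries in the upper panels and FL libraries in the lower ones, with a line per gene and black bars for medians; lines only join the values of a gene, since libraries have no order. Recombination (17) and Fanconi anaemia (7) genes are mostly high in KO replicate 3 and low in KO replicate 4, as are all 20 mitosis genes, whereas the 8 end joining and kinase genes show no common order.

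Calls were also taken without KO replicates 2 and 3, the libraries with the most eosinophil transcripts. The 8 tested of 9 eosinophil markers, among them Epx and Prg2 for granule proteins, summed to 287, 937, 1348 and 299 CPM in KO replicates 1 to 4 and to 121 to 227 CPM in FL; 6 of the 8 were higher and 1, Siglecf, was lower in KO, and none of the 9 was at 0 in all libraries. Without both libraries Xrcc5 was the only member called, at a log2 fold change of 2.26 (adjusted p = 0.011). Fancc, Nbn, Prkdc and Xrcc4 then had 0.54, 0.39, 0.42 and 0.62 with adjusted p of 0.080, 0.15, 0.16 and 0.057, while the all-gene share called higher was 5.44%. Other marker sums also differed: the 5 tested monocyte and macrophage markers summed to 1716 to 1996 CPM in KO and 2945 to 6167 CPM in FL, and the 3 tested mast cell and basophil markers to 28.6 to 41.4 CPM in KO and 89.5 to 229.9 CPM in FL. Members of these lists went both ways: of the monocyte genes Ly6c2 and Adgre1 were lower in KO and Csf1r higher (log2 fold change 0.73), and of the mast cell and basophil genes Cpa3 was lower, at 5.03 ± 2.88 CPM in KO and 131.8 ± 69.8 CPM in FL (SD, n = 4 each), and Ms4a2 higher (1.82). The 5 tested erythroid markers summed to 3.54 to 31.3 CPM in KO and 2.31 to 4.73 CPM in FL, and the 3 tested B and T cell markers to 77 to 101.6 CPM in KO and 89.7 to 118.9 CPM in FL. The part of RNA from these cell types in the members' values was not tested. Without a count filter Nbn, Prkdc and Xrcc4 did not pass in edgeR (adjusted p of 0.14, 0.11 and 0.096). With detected genes as a covariate Fancc, Nbn, Prkdc and Xrcc4 did not pass in edgeR (adjusted p of 0.53, 0.67, 0.55 and 0.25). That covariate differs between the groups without overlap, and with it 0.614% of all genes were called higher and 0.563% lower. Not passing in that fit therefore says little about these genes.

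The rest of the break repair pathway, 62 tested of 63 further genes listed by symbol, held 7 genes higher and 7 lower in KO by edgeR, and 48 that did not pass. These counts lay near or under the all-gene shares of 13.0% higher and 14.9% lower, and the median log2 fold change was -0.09. Among those with the smallest p, the following fell: Rpa1, the largest subunit of the protein that coats single-stranded DNA, averaged 151.2 ± 16.3 CPM in KO and 252.7 ± 13.1 CPM in FL (log2 fold change -0.74, SE 0.11, adjusted p = 7.6e-04), and Sem1, a small BRCA2 partner, had -0.72 (SE 0.13, adjusted p = 0.0025). Rpa2, Dna2, Sfr1 and Rif1 also fell and were named after their values were seen. The 7 that rose, also named after their values were seen, were Dclre1c, Mdc1, Chek2, Trp53bp1, Ube2t, Slx4 and Rad52. Dclre1c encodes Artemis, the nuclease that opens ends with DNA-PK, and was at 25.4, 22.7, 23.1 and 28.1 CPM in KO against 17.6, 15.0, 12.2 and 12.6 CPM in FL (0.79, SE 0.15, adjusted p = 0.0031). Mdc1, an adaptor on marked chromatin, had 0.70 (SE 0.15, adjusted p = 0.0056), and Trp53bp1, which restrains resection, had 0.62 (SE 0.16, adjusted p = 0.015), whereas Rif1, which acts with it, had -0.40 (SE 0.10, adjusted p = 0.015). Under total-count scaling 34 of the 62 were higher and 0 lower by edgeR, beside 51.7% and 5.09% of all genes. The 7 falls were thus called relative to the bulk of genes only.

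Other DNA repair routes and DNA replication are given for comparison. Of 32 tested genes of mismatch, base excision and nucleotide excision repair, 2 were higher and 6 lower in KO, beside all-gene shares of 13.0% and 14.9%, with a median log2 fold change of -0.09. Of the 38 DNA replication and G1/S genes, 0 were higher and 16 lower by edgeR with TMM, with a median of -0.44. With total-count scaling 3 were higher and 2 lower, beside 51.7% and 5.09% of all genes. Their median was then 0.16, beside 0.64 for all genes. With TMM the members' median of 0.03 was above that of the replication genes, and the difference between the lists was not tested. The 20 mitosis genes had 0 calls in edgeR, none at an unadjusted p under 0.05, with a median of 0.04.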

How the data were processed

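RNA was extracted with a miRNeasy kit, reverse-transcribed and amplified after Geo-seq and tagmented with a TruePrep kit, per the labels' protocols. Molecular identifiers are not mentioned, and PCR copies may be counted as reads. The authors deposited 1 table of raw counts per gene symbol. Without giving roles, the submitters' processing notes list mm10, DESeq2, HTSeq 0.13.5 and Bowtie 0.12.9; the sheet name points to featureCounts. For strand setting, annotation and multi-mapped reads, the sources used here state nothing. Columns headed WT were assigned to FL by number, since FL is the one other group. Every entry named a gene.

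KO was compared with FL with edgeR 4.0.16 (R 4.3.3) on the whole table: TMM, filterByExpr, quasi-likelihood F test without covariates, Benjamini-Hochberg adjustment over 17418 genes at 0.05. SE was taken as the absolute log2 fold change over root F. CPM are TMM-scaled. DESeq2 1.42.0 was an alternative. Both were tested on simulated data with 200 changed genes. At 2-fold and 4-fold, edgeR recovered 63.9% and 90.7% of them, and 4.46% of its calls were false. DESeq2 recovered 59.2% and 90.7%, with 13.1% of its calls false. The changed genes were split evenly up and down, and genes of like level were given like spread. In the data 27.9% of genes were called, so these rates may not carry over. Changes under 2-fold were not simulated, so a member that did not pass may still differ. Positions and exon lengths came from GENCODE M21 (mm10), matched by symbol for all 32 members. A minimap2 2.31 search listed no other gene's transcript outside the members' loci over 200 bases at 90% identity. It was run without base-level alignment, so identity was approximated from short exact matches. Less similar copies could be missed, and the search cannot exclude them. Libraries of a group differed beyond sampling noise (chi-square per degree of freedom at least 21.2).

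Per-library values were given for members called by edgeR and for Brca1, Brca2, Atm, Atr, Prkdc, Xrcc5, Xrcc6 and Lig4; Blm was added after its values were seen. Up to 3 genes by smallest p were named from the list of other break repair genes, of which some are not reported here. The members and lists were chosen with earlier results of these data known. Alternatives are those named in the closing section.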

Additional observations from a re-analysis of the deposited data

Results flagged for a closer look

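Palb2 was at 13.9 CPM in FL replicate 3, apart from the other FL libraries at 16.3 to 16.6 CPM, which marked that library as far from the rest of its group. Xrcc3 was likewise at 20 CPM in KO replicate 4, with the other KO libraries at 27.4 to 28.5 CPM. These were the 2 values marked among 66 gene and group combinations tested (33 genes with Dek, in 2 groups), and chance marks about 1 in 20.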

How the results depend on the processing

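Dek was called lower under each of 16 alternatives (log2 fold change -3.48 to -2.15). The number of members called, 5, was also 5 with RLE factors, DESeq2 and the replicate block; it was 24 with total-count scaling, 3 without a count filter (2 higher, 1 lower, Blm), 0 with genes detected as a covariate (1 higher and 11 lower at an unadjusted p under 0.05, edgeR) and 1 without KO replicates 2 and 3. The covariate fit put the members' median log2 fold change at -0.635, beside 0.033 for all genes. No all-gene share at an unadjusted p is given here to set beside the 11 lower. Since the covariate differs between the groups without overlap, that fit cannot separate it from the group, and the lower median was not read as a result. Leaving out 1 library gave 2 to 5 called members (2 to 5 higher, 0 to 1 lower). Members with no call that were called higher with total-count scaling after a negative value were Rbbp8 (0.53), Exo1 (0.54), Brca2 (0.58), Rad51b (0.54) and Atr (0.59); total-count scaling moves the median of all genes by 0.59, which is the size of these shifts. For the other break repair genes 14 calls (7 higher, 7 lower) became 34, all higher, with total-count scaling, where 0 were lower; 0 with the covariate; 5 without KO replicates 2 and 3 (1 higher, 4 lower); and 7 to 13 when 1 library was left out (3 to 8 higher, 4 to 9 lower), with 7 without KO replicate 2 (3 higher, 4 lower) and 9 without FL replicate 3. The 4853 calls of all genes (2256 higher, 2597 lower) became 9898 (9012 and 886) with total-count scaling, 3140 (1368 higher) with the stricter filter of 5 CPM in 4 libraries, 205 (107 and 98) with the covariate and 2342 (1000 and 1342) without KO replicates 2 and 3; 3745 were higher with DESeq2 and 3647 without a filter, and 1459 to 2443 were higher when 1 library was left out, the fewest without KO replicate 2. The fits kept unlike numbers of genes, so these counts do not compare directly. Of 46035 genes, 8.14% were higher with DESeq2 and 7.92% without a filter, beside 13.0% of 17418 in the main fit. With the stricter filter 13.7% of 10013 genes were higher and 17.7% lower. The cause of these changes in the calls was not tested. The stricter filter left 30 members, without Xrcc5 and Lig4. The replicate block gave 4339 calls of all genes and changed no call of a member; libraries of the same number had r of -0.07 to 0.07 between deviations from their group means, and not every KO library correlated best with the FL library of its number, so the numbers were not read as pairs. Depth limits Xrcc5 most, with 12 to 32 counts per FL library. These totals may include PCR copies, which were not measured.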
